A study of Homo sapiens with 6 samples.

Results

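Interferon-stimulated genes were followed in T24 cells cultured with or without transforming growth factor β1 (TGF-β1). The set was a fixed list of 49 named genes, matched by symbol to the 58735 gene rows of the deposited expression table. Each of the 49 symbols was present in that table. A total of 26 of them reached at least 1 FPKM (fragments scaled to exon length and library total) in at least 3 libraries and were tested among 11363 genes. The other 23 were too low to test and are described by their fragment counts.

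T24 is an established human bladder cancer cell line, labelled as urothelial carcinoma and wild type. The series holds 6 RNA-seq libraries: 3 control libraries from cells kept without TGF-β1, and 3 from cells given TGF-β1 at 10 ng/ml for 48 h, all at day 2. TGF-β1 is a secreted cytokine that signals through receptor kinases and SMAD transcription factors. Growth in 10% fetal bovine serum was common to both groups. Separate cultures are not stated for the libraries of a group. The p-values therefore reflect the spread among these 6 libraries, and that spread may be technical.

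Type I and type III interferons bind their receptors and activate the kinases JAK1 and TYK2, which phosphorylate STAT proteins. STAT2 and IRF9 are parts of ISGF3, a complex that binds the interferon-stimulated response element and switches on a large set of antiviral genes. The products sense viral RNA, block its translation, trap virions or tag proteins with ISG15, and many cells keep a low level of some of them without added interferon.

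The promoter sequences below are shown because they carry letters of the elements through which interferon acts, in members with very different levels in T24 cells. The core of the interferon-stimulated response element, read here as GAAA, any 2 bases and GAAA again, was searched on both strands of RefSeq promoters of GRCh38.p14, from 250 bases before to 50 after each start. At least 1 promoter held it in 27 of the 40 members found in that table (67.5%), against 4.38% of all 27305 gene symbols there. Counted by promoter, it was in 32 of 55 promoters of members, against 3.57% of all 35116 promoters. TTCNNNGAA, a STAT-binding palindrome, was present in 13 of the 40 (32.5%), against 9.38% of all symbols, and in 15 of the 55 promoters, against 7.66% of all promoters. The letters of the 2 motifs can share bases. Among members with a promoter, the response element core was present in 18 of the 24 that were tested for expression and in 9 of the 16 that were too low to test. No promoter was matched for USP18, IRF7, DHX58, OAS2, OASL, IFIT2, IFITM2, MX2 and TRIM22. A match describes letters in this window only.

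Each line below gives the last 170 bases before the start, 5′ to 3′ on the strand of the gene, with the motif in capitals. Capitals mark the response element core in every line except that of IRF1, where they mark TTCNNNGAA. The first group reached the level for testing in these libraries: ISG15 at chr1:1013327-1013496 (plus strand), IFITM3 at chr11:320861-321030 (minus strand), LGALS3BP at chr17:78979924-78980093 (minus strand), IFI6 at chr1:27672193-27672362 (minus strand), IRF1 at chr5:132490774-132490943 (minus strand) and OAS3 at chr12:112938304-112938473 (plus strand).
ISG15: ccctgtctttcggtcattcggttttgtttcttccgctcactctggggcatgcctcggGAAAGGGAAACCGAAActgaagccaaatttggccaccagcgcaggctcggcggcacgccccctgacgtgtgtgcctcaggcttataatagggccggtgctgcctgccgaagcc
IFITM3: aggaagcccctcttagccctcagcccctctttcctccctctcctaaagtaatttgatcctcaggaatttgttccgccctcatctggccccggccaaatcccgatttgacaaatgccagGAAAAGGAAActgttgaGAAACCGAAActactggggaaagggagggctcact
LGALS3BP: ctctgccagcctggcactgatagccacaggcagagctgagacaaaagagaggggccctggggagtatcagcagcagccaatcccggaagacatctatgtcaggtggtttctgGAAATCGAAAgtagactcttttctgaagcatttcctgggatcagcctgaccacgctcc
IFI6: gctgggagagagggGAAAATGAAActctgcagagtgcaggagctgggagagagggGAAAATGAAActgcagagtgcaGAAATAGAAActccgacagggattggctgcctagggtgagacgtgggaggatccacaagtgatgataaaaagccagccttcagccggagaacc
IRF1: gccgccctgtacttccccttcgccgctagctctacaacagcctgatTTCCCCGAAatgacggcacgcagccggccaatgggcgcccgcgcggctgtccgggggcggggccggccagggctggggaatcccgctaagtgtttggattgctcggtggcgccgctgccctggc
OAS3: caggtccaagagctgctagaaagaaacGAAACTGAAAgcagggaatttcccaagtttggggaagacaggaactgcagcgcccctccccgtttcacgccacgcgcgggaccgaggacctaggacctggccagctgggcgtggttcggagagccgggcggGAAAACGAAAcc

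The second group holds the same motif, in promoters of genes with 0 to 2 fragments over the 6 libraries: IFITM1 at chr11:313870-314039 (plus strand), BST2 at chr19:17405631-17405800 (minus strand) and IFI44L at chr1:78620278-78620447 (plus strand).
IFITM1: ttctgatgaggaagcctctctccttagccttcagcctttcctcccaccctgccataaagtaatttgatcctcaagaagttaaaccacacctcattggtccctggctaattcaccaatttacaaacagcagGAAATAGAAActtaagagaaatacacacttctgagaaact
BST2: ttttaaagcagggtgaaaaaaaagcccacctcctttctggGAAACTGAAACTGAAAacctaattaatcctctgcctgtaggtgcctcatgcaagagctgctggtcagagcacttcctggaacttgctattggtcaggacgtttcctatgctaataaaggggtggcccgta
IFI44L: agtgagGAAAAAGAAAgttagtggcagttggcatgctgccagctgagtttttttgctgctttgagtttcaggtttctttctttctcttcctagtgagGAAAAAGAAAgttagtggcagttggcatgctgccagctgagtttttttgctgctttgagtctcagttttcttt

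The libraries held 53591796 to 60200816 reads, of which 93.5 to 95.5% were mapped, and 20703945 to 23678772 fragments assigned to genes. On a gene of 2000 bp, 3 fragments corresponded to 0.0625 to 0.0701 FPKM. Control library 3 stood apart from the other controls. Its fragment counts differed from theirs by a chi-square per degree of freedom of 25.6 and 36.3, against 7.61 between control libraries 1 and 2, and from those of TGF-β1 libraries 1, 2 and 3 by 18.0, 17.9 and 30.3. Within the TGF-β1 group the values were 9.78, 11.4 and, between libraries 1 and 3, 25.7. The main counts of genes, and the values of several genes that turn on control library 3, are given with and without it. Of the epithelial markers, the keratin gene KRT18 was at 265 to 375 FPKM in controls and 212 to 237 with TGF-β1, whereas KRT5, KRT19 and UPK3A were at 0 fragments in all libraries. The 11 epithelial markers summed to 471 to 638 FPKM per control library and 407 to 439 per TGF-β1 library. GATA3, a urothelial transcription factor, did not exceed 0.065 FPKM in any library. Of 12 leukocyte markers, 6 were at 0 fragments in all libraries, among them the T-cell genes CD3E and CD3D and the natural killer cell gene NKG7. The 12 summed to 33 to 40 fragments per control library and 39 to 54 per TGF-β1 library, and their part in the results was not tested.

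Most of the detectable interferon-stimulated genes did not pass the test between TGF-β1 and control libraries. Of the 26 tested members 1 passed the threshold of an adjusted p of 0.05 over all genes: LGALS3BP, a secreted glycoprotein that binds galectins, fell. This is 3.85% of those tested, against a background of 2.44% of all 11363 genes called in either direction (277 genes) and 1.29% called lower (147 genes). None passed in the higher direction by limma, where the background was 1.14%; at an unadjusted p under 0.05, HERC5 and EIF2AK2 were higher, and limma's voom test on recovered fragments also called 0 higher. The tested members lay on both sides of 0, with 13 estimates above and 13 below. Their median difference was -0.01 on the log2(FPKM + 1) scale, beside 0.01 over all tested genes. In bulk RNA, fewer cells with a transcript and less of it per cell cannot be told apart.

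**Figure D1:**
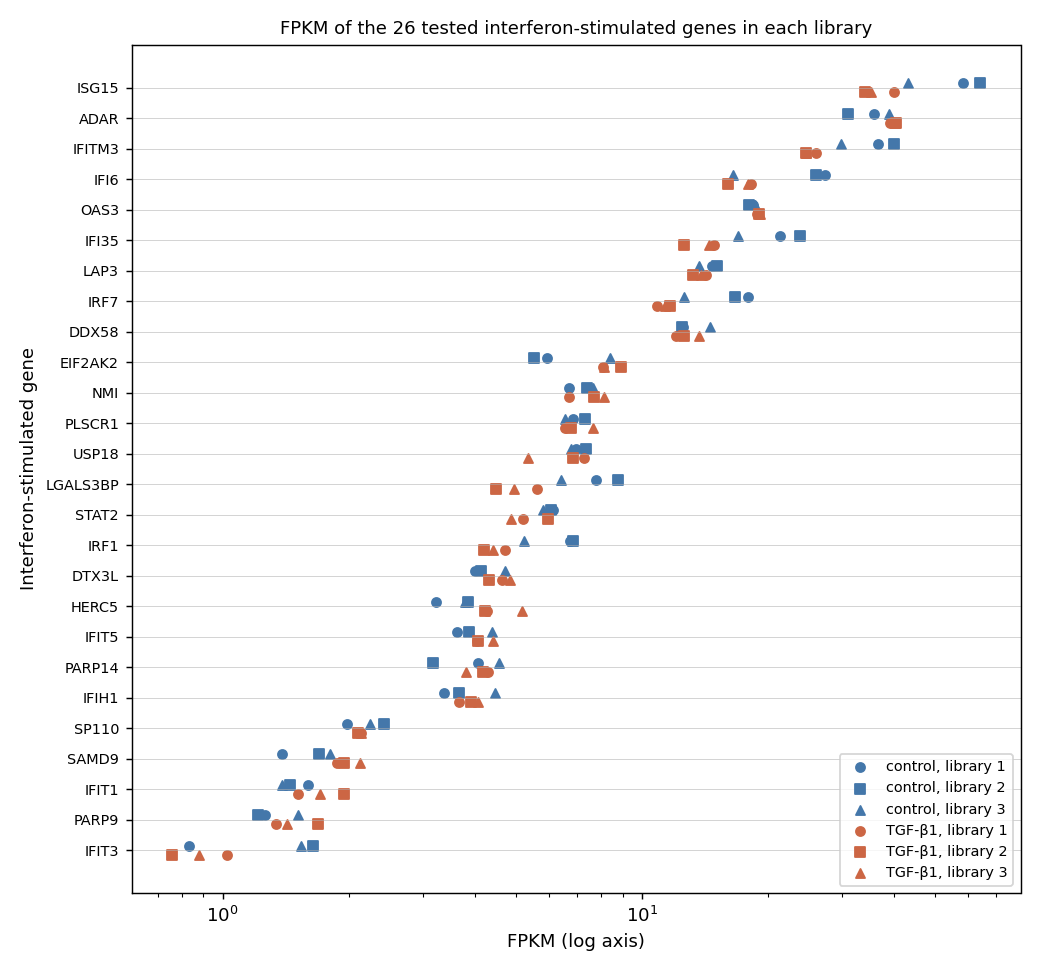
FPKM on a log axis for each of the 26 tested interferon-stimulated genes (vertical axis, ordered by mean level), with 1 point per library, blue for control and orange for TGF-β1, and the marker shape giving the library number. ISG15, IFITM3, IFI35, IRF7, IRF1 and LGALS3BP show every TGF-β1 point to the left of every control point, with control library 3 the lowest of the controls in each.

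In LGALS3BP (chr17:78971238-78980109, minus strand, GRCh38) the level was 7.75, 8.77 and 6.42 FPKM in control libraries 1, 2 and 3, and 5.62, 4.49 and 4.96 FPKM in TGF-β1 libraries 1, 2 and 3. All TGF-β1 libraries lay below all controls, and control library 3 was the nearest to them. The mean was 7.65 ± 1.18 FPKM (SD, n = 3) in controls and 5.02 ± 0.566 (SD, n = 3) with TGF-β1, a ratio of 0.657. On the log2(FPKM + 1) scale the difference was -0.52 with a standard error of 0.12 (limma, Benjamini-Hochberg adjusted p = 0.0491). The call sat at the edge of the threshold. It was kept without control library 3 (adjusted p = 0.0102) or TGF-β1 library 1 (adjusted p = 0.0435). It was lost without control library 1 (0.175), control library 2 (0.171), TGF-β1 library 2 (0.181) or TGF-β1 library 3 (0.124), and with the trend of GC content and gene length removed (0.0543). Over 16 alternative settings the adjusted p ran from 0.0102 to 0.335, and the estimate was below 0 in each of them.

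The groups did not overlap in 10 of the 26 tested members, 4 higher and 6 lower with TGF-β1. Over all tested genes the groups did not overlap in 14.6% in the higher direction and 12.5% in the lower one, and the members' shares were 15.4% and 23.1%. At an unadjusted p under 0.05 there were 2 higher and 6 lower members, 7.69% and 23.1% of those tested, against 11.2% and 13.9% of all genes. The 6 lower members were the same by both counts: ISG15, IRF1, IRF7, IFITM3, IFI35 and LGALS3BP. Without control library 3 the groups did not overlap in 8 members in the higher direction and 9 in the lower one (30.8% and 34.6%), against 30.8% and 30.2% of all genes. At an unadjusted p under 0.05 there were then 3 higher and 7 lower members (11.5% and 26.9%), against 20.7% and 23.3% of all genes.

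**Figure D2:**
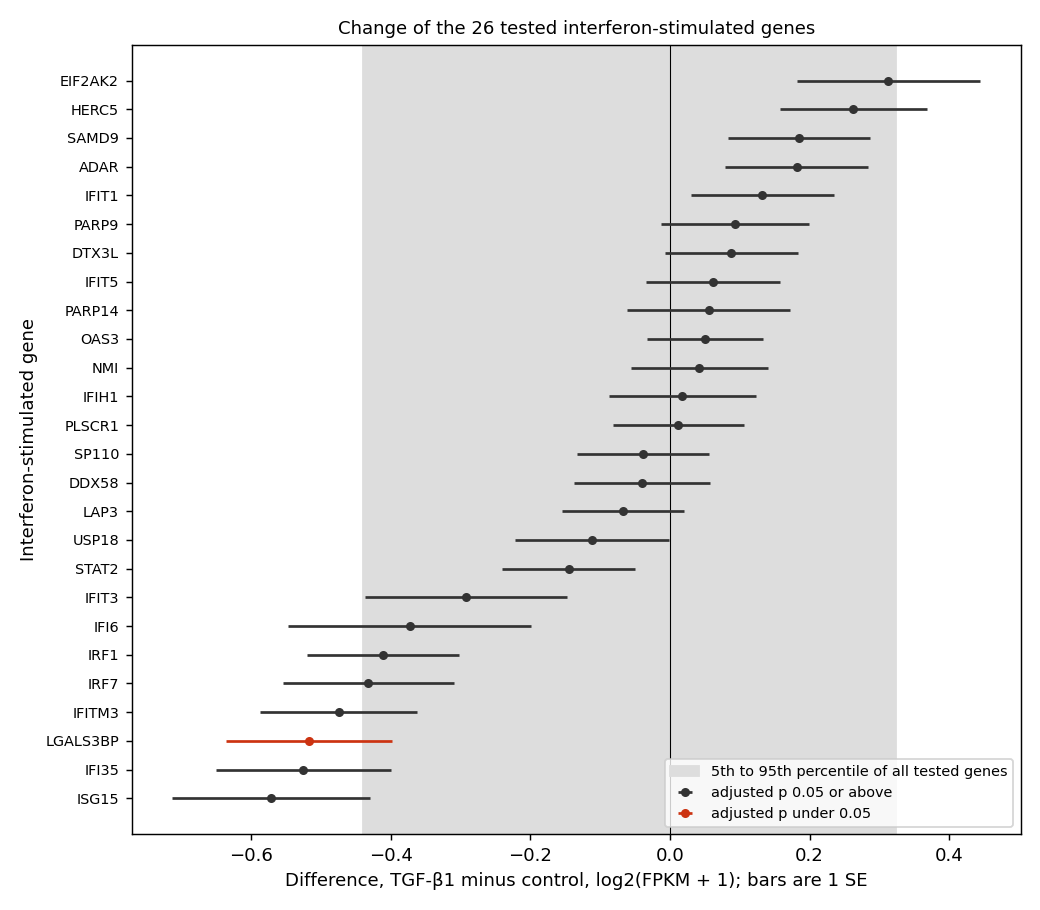
Difference of TGF-β1 minus control on the log2(FPKM + 1) scale for each of the 26 tested interferon-stimulated genes, with bars of 1 standard error and the grey band spanning the 5th to 95th percentile of all tested genes, -0.44 to 0.32. ISG15, IFI35, LGALS3BP and IFITM3 lie below the band, and LGALS3BP in red is the member with an adjusted p under 0.05.

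ISGylation is the attachment of the ubiquitin-like protein ISG15 to other proteins. ISG15 itself (chr1:1001138-1014540, plus strand) was the most abundant member in control cells, with 58.4, 64.1 and 43.1 FPKM in the 3 control libraries and 39.96, 34.0 and 35.2 FPKM in the 3 TGF-β1 libraries. The groups did not overlap. The means were 55.2 ± 10.9 FPKM (SD, n = 3) and 36.4 ± 3.14 (SD, n = 3), and the log2 difference of -0.57 (SE 0.14) missed the threshold (limma, adjusted p = 0.0614). HERC5, the main ligase that attaches ISG15 to its targets, was at 3.23, 3.84 and 3.79 FPKM in controls and 4.26, 4.23 and 5.17 FPKM with TGF-β1. Its groups did not overlap in the opposite direction, at a log2 difference of 0.26 (SE 0.10, adjusted p = 0.161), and 0.29 without control library 3 (adjusted p = 0.0804). USP18, the protease that removes ISG15, ran from 6.79 to 7.37 FPKM in controls and from 5.34 to 7.26 FPKM with TGF-β1, so its groups overlapped. HERC6, a relative of HERC5, was not tested, with 365 fragments in controls and 349 with TGF-β1.

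Of the transcription factors, IRF1 (chr5:132481609-132490798, minus strand), an activator induced by interferon-γ, was at 6.75, 6.84 and 5.22 FPKM in controls and 4.70, 4.20 and 4.42 FPKM with TGF-β1. IRF7, the factor that amplifies interferon gene transcription, was at 18.0, 16.6 and 12.6 FPKM in controls and 10.8, 11.7 and 11.4 FPKM with TGF-β1. In both genes all TGF-β1 libraries were below all controls, and control library 3 was the lowest control. The log2 differences were -0.41 for IRF1 (SE 0.11, limma adjusted p = 0.0744) and -0.43 for IRF7 (SE 0.12, limma adjusted p = 0.0841). In the annotation 22.0% of the exon bases of IRF1 also lie in genes on the other strand, and the labels do not give the strand setting used in counting. STAT2 ran from 5.80 to 6.12 FPKM in controls and from 4.87 to 5.96 FPKM with TGF-β1, with a log2 difference of -0.14 (SE 0.10, adjusted p = 0.343). IRF9, the DNA-binding part of ISGF3, had 53 fragments in controls and 51 with TGF-β1, with 48.4% of its exon bases shared with another annotated gene on the same strand.

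The cytoplasmic RNA sensors differed little between the groups. DDX58, which encodes RIG-I, was at 12.5, 12.4 and 14.6 FPKM in controls and 12.1, 12.6 and 13.7 FPKM with TGF-β1. IFIH1, which encodes MDA5, was at 3.38, 3.67 and 4.46 FPKM in controls and 3.66, 3.91 and 4.06 FPKM with TGF-β1. The libraries of the 2 groups were interleaved for both genes, at log2 differences of -0.04 (SE 0.10, limma adjusted p = 0.814) and 0.02 (SE 0.11, limma adjusted p = 0.927). DHX58, which encodes the regulator LGP2, had 8 fragments in controls and 9 with TGF-β1.

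Enzymes that act on double-stranded RNA had estimates above 0 where they could be tested. EIF2AK2, the kinase PKR that halts translation, was at 5.94, 5.54 and 8.39 FPKM in controls and 8.05, 8.91 and 8.11 FPKM with TGF-β1. Control library 3 lay among the TGF-β1 libraries, so the groups overlapped, and the log2 difference was 0.31 (SE 0.13, limma adjusted p = 0.176). ADAR, which edits adenosine to inosine, was at 35.8, 31.0 and 38.8 FPKM in controls and 39.1, 40.4 and 40.2 FPKM with TGF-β1. The groups were apart by a small gap, with a log2 difference of 0.18 (SE 0.10, adjusted p = 0.276). This was 0.09 without control library 2 and 0.25 without control library 3 (limma adjusted p = 0.690 and 0.0564). OAS3, an oligoadenylate synthetase that activates RNase L, was at 18.0 to 18.6 FPKM in controls and 18.8 to 19.2 FPKM with TGF-β1. Its relatives were far lower and were not tested: OAS1 had 351 fragments in controls and 248 with TGF-β1, OASL 95 and 69, and OAS2 16 and 7. In OAS1 and OASL, unlike the tested enzymes, every TGF-β1 library lay below every control in FPKM.

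The IFIT genes, whose products bind viral RNA ends, were low. IFIT1 was at 1.60, 1.45 and 1.39 FPKM in controls and 1.51, 1.94 and 1.71 FPKM with TGF-β1. IFIT3 was at 0.829, 1.64 and 1.54 FPKM in controls and 1.03, 0.758 and 0.877 FPKM with TGF-β1. The groups overlapped in both, at log2 differences of 0.13 (SE 0.10, limma adjusted p = 0.413) and -0.29 (SE 0.14, limma adjusted p = 0.228). In IFIT3 it was control library 1, not 3, that lay with the TGF-β1 libraries, and without it the log2 difference was -0.46 (limma adjusted p = 0.183). Without control library 2 it was -0.19 (limma adjusted p = 0.572). IFIT5 had 1085 fragments in controls and 1159 with TGF-β1, and IFIT2, not tested, had 191 and 156.

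Among membrane proteins that restrict virus entry and release, IFITM3 (chr11:319669-327537, minus strand) was the single one at a testable level. Its level was 36.7, 39.8 and 29.8 FPKM in controls and 26.0, 24.6 and 24.6 FPKM with TGF-β1. The groups did not overlap, and the TGF-β1 libraries were close to each other. The means were 35.4 ± 5.12 FPKM (SD, n = 3) and 25.1 ± 0.781 (SD, n = 3), a log2 difference of -0.47 with a standard error of 0.11 (limma adjusted p = 0.0547). IFITM1, IFITM2 and IFITM3 are close paralogs on chromosome 11, so how the counting shared reads between them is uncertain, and 21.3% of the exon bases of IFITM3 lie in another gene on the other strand. IFITM1 had 0 fragments in all 6 libraries, which allows up to 3 fragments in a library, or 0.116 to 0.130 FPKM. IFITM2 had 32 fragments in controls and 8 with TGF-β1. On the same strand 32.5% of the exon bases of IFITM1 lie in exons of IFITM2, and 22.7% of those of IFITM2 in exons of IFITM1, so the counts of both are uncertain. BST2, the tether that holds budding virions at the cell surface, had 2 fragments in controls and 0 with TGF-β1.

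The Mx GTPases, viperin and the nucleases were all below the level for testing. MX1 had 111 fragments in controls and 97 with TGF-β1, whereas MX2 had 1 fragment in the 6 libraries. RSAD2, which encodes viperin, had 5 fragments in controls and 7 with TGF-β1, and its neighbour CMPK2 had 170 and 210. ISG20, an exonuclease, had 243 fragments in controls and 147 with TGF-β1, with levels of 0.413, 0.636 and 0.405 FPKM in controls and 0.279, 0.357 and 0.229 FPKM with TGF-β1.

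PARP9, PARP14 and DTX3L encode ADP-ribosyltransferases and a ubiquitin ligase that work with them, and their estimates were small. PARP9 was at 1.26, 1.21 and 1.51 FPKM in controls and 1.34, 1.69 and 1.42 FPKM with TGF-β1. DTX3L, which shares a divergent promoter region with PARP9, was at 3.99, 4.13 and 4.71 FPKM in controls and 4.64, 4.33 and 4.84 FPKM with TGF-β1. The groups overlapped in both, and in PARP14, which had 2816 fragments in controls and 2967 with TGF-β1. Over the 3 genes the log2 differences were 0.06 to 0.09.

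Of the IFI genes and NMI, IFI35 (chr17:43006725-43014456, plus strand), a binding partner of NMI, was at 21.3, 23.8 and 16.9 FPKM in controls and 14.8, 12.6 and 14.4 FPKM with TGF-β1. Its groups did not overlap. The means were 20.7 ± 3.50 FPKM (SD, n = 3) and 14.0 ± 1.18 (SD, n = 3), with a log2 difference of -0.53 (SE 0.13, limma adjusted p = 0.0562). IFI6 (chr1:27666061-27672218, minus strand), a small membrane protein known to restrain cell death, was at 27.4, 26.1 and 16.5 FPKM in controls and 18.2, 16.1 and 17.9 FPKM with TGF-β1. Here control library 3 lay within the range of the TGF-β1 libraries, and the log2 difference was -0.37 (SE 0.17, adjusted p = 0.218). NMI, with 1718 and 1811 fragments, was nearly level between the groups. IFI27 had 36 fragments in controls and 55 with TGF-β1, and IFI44 had 52 and 67. IFI44L and IFI16 had 1 and 5 fragments over the 6 libraries.

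In the remaining role group, SAMD9, a restriction factor for poxviruses, was at 1.39, 1.70 and 1.80 FPKM in controls and 1.87, 1.95 and 2.13 FPKM with TGF-β1. The groups were apart with the higher values under TGF-β1, at a log2 difference of 0.18 (SE 0.10, limma adjusted p = 0.268), and 0.23 without control library 3 (limma adjusted p = 0.115). The scramblase gene PLSCR1, the aminopeptidase gene LAP3 and the nuclear body gene SP110 overlapped between the groups, with log2 differences of 0.01, -0.07 and -0.04. In SP110 20.9% of exon bases lie in other genes on the other strand. SAMD9L, the paralog of SAMD9, had 166 fragments in controls and 174 with TGF-β1. TRIM22 had 6 and 4 fragments, XAF1 had 1 and 0, and EPSTI1 had 0 in all libraries, which allows up to 0.0254 to 0.0285 FPKM.

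The level of these genes in T24 cells was therefore very uneven before any comparison. Of the 49, 9 had a mean of at least 10 FPKM: ISG15, IRF7, DDX58, OAS3, ADAR, IFITM3, IFI6, IFI35 and LAP3. At the other end 2 had no fragment and 8 had 1 to 20 fragments over the 6 libraries, namely DHX58, BST2, MX2, RSAD2, IFI44L, IFI16, XAF1 and TRIM22. A further 13 had at least 21 fragments but stayed below the level for testing.

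Without control library 3, 8 of the 26 tested members passed the threshold, 1 higher and 7 lower. EIF2AK2 was the higher one (log2 difference 0.47, SE 0.08, limma adjusted p = 0.0104). The lower ones were ISG15, IRF1, IRF7, IFITM3, IFI35, LGALS3BP and IFI6, with log2 differences from -0.52 to -0.74 and limma adjusted p from 0.0063 to 0.0102. The background rose as well, to 12.4% of all genes higher and 16.5% lower (28.9% in either direction), beside 3.85% and 26.9% of the tested members. Leaving out control library 1, control library 2, TGF-β1 library 2 or TGF-β1 library 3 gave 0 called members by limma. The shares of all genes called were then 1.09%, 1.55%, 1.34% and 1.34%. Leaving out TGF-β1 library 1 gave 1 member, against 2.9% of all genes. The voom test called 0 members higher and 6 lower, ISG15, IRF1, IRF7, IFITM3, IFI35 and LGALS3BP, against 3.51% and 5.83% of all genes (9.33% in either direction). Over 16 alternatives the adjusted p of ISG15 ran from 0.00658 to 0.377, that of IFITM3 from 0.0063 to 0.335 and that of IFI35 from 0.00812 to 0.363, with every estimate below 0.

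**Figure D3:**
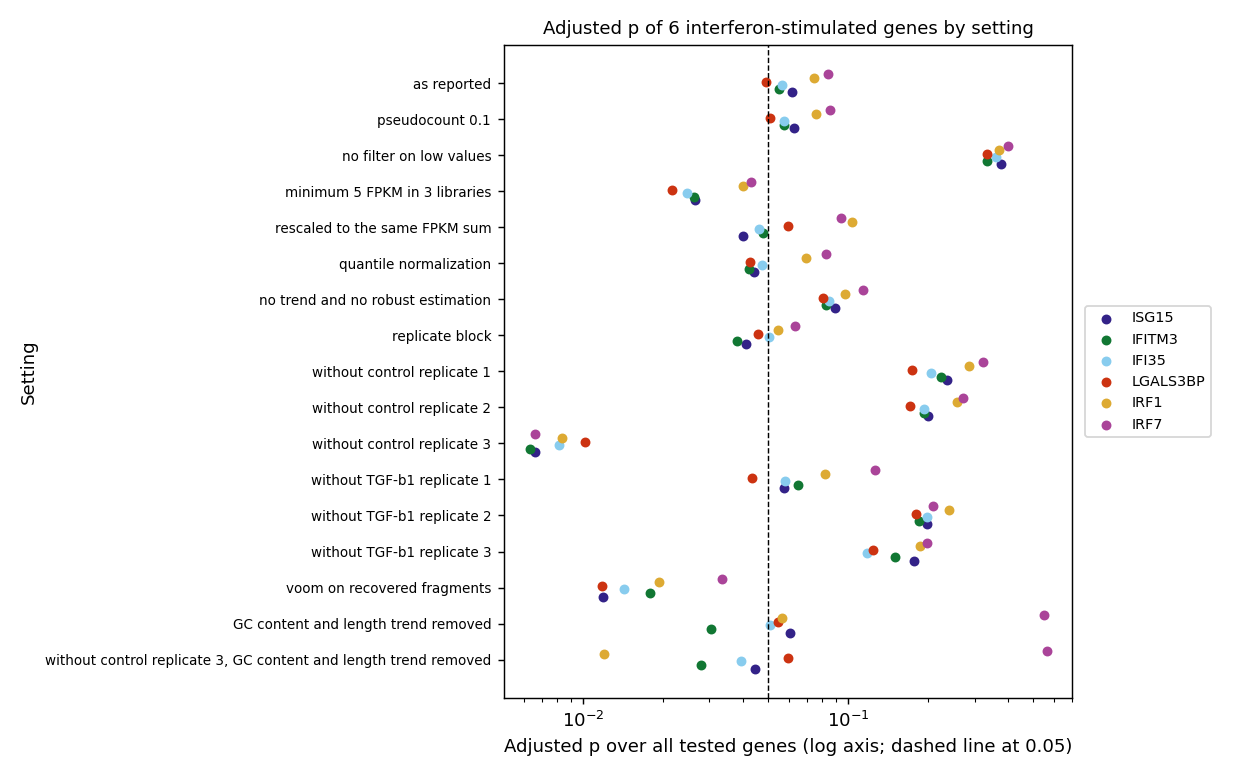
Adjusted p over all tested genes (log axis, dashed line at 0.05) for the 6 interferon-stimulated genes whose groups did not overlap in the lower direction, under the reported setting and 16 alternatives. The points of all 6 genes lie to the left of the line without control library 3, with voom and with a minimum of 5 FPKM, and to the right of it without control library 1, control library 2, TGF-β1 library 2 or TGF-β1 library 3.

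The difference between the groups moved with the GC content of the transcripts, in these genes as in the whole table. Over the 26 tested members the log2 difference had a Pearson correlation of -0.82 with GC content (Spearman -0.758) and of 0.71 with log2 exon length. Over 11292 genes the correlation was -0.54 with GC content and 0.21 with log2 exon length. Without control library 3 the correlations with GC content were -0.85 over the members and -0.62 over all genes. These are correlations across genes of the same 6 libraries, which are not independent replicates. Members at 60% GC or more, ISG15, IRF7 and LGALS3BP, had a median log2 difference of -0.52, and all genes in that range had -0.24. In the range from 55% to 60%, IFITM3, IFI35 and IFI6 had a median of -0.47 beside -0.15 for all genes. Below 40% GC the 4 tested members had a median of 0.12 beside 0.17 for all genes.

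With the trend of GC content and length removed from each library, the log2 differences of all 6 lower members were nearer to 0. ISG15 went to -0.24 (SE 0.06, limma adjusted p = 0.0605) and IFITM3 to -0.26 (SE 0.05, limma adjusted p = 0.0303). IFI35 and LGALS3BP went to -0.30 each, with limma adjusted p of 0.0507 and 0.0543. IRF7, the member with the highest GC content at 66.8%, went to -0.09 (SE 0.08, limma adjusted p = 0.546), whereas IRF1 was at -0.39 (SE 0.09, limma adjusted p = 0.0566). EIF2AK2, at 38.7% GC, went from 0.31 to 0.13. One member, IFITM3, was then called, against 4.32% of all genes, and the correlation with GC content was -0.41 over the members and 0.03 over all genes. That with log2 exon length was 0.47 over the members and -0.05 over all genes. GC content and treatment moved together in these libraries and cannot be told apart.

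**Figure D4:**
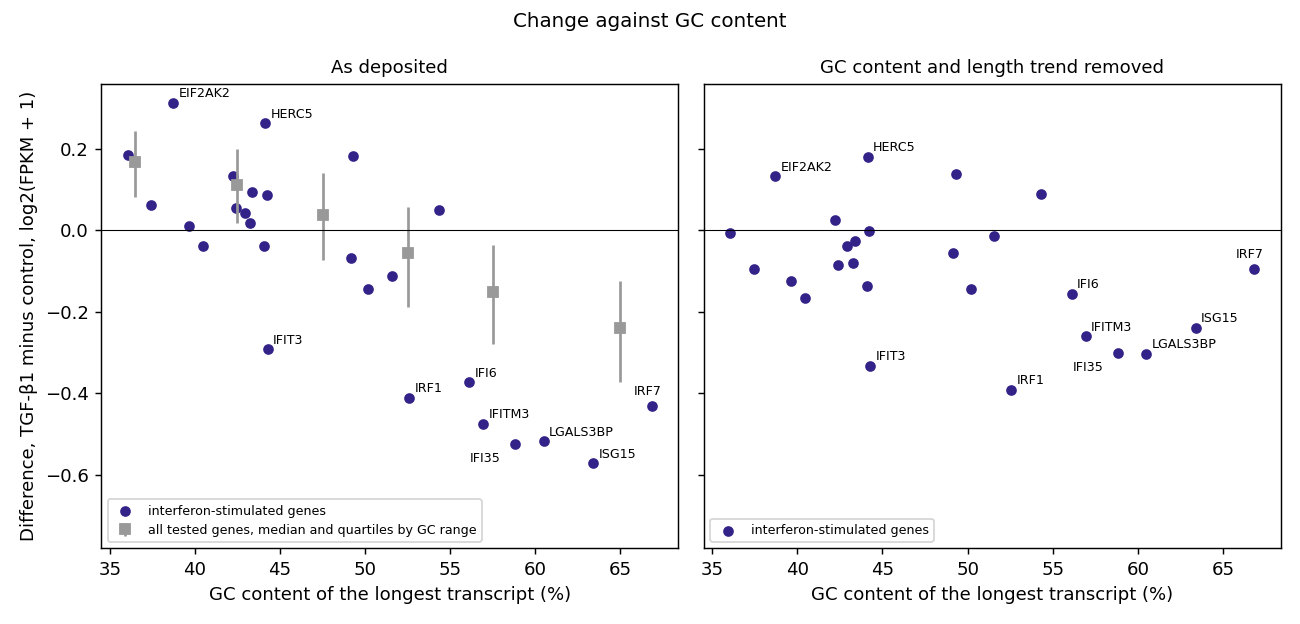
Difference of TGF-β1 minus control on the log2(FPKM + 1) scale against the GC content of the longest transcript for the 26 tested interferon-stimulated genes, as deposited (left) and with the trend of GC content and length removed (right), with grey squares and lines for the median and quartiles of all tested genes by GC range. On the left the members at 55% GC or more lie below the median of all genes in their range, and on the right IRF1, IFIT3, LGALS3BP and IFI35 are the lowest.

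The rest of the interferon pathway was counted in 5 lists of 88 genes, of which 50 were tested. None of the 50 passed the threshold by limma, against 2.44% of all genes. An unadjusted p under 0.05 was found for 13 of them, near the 25.1% of all genes, and voom called 5, near its 9.33% of all genes. Without control library 3, 13 were called, 5 higher and 8 lower (10.0% and 16.0%), against 12.4% and 16.5% of all genes. The higher ones were IFNAR1, JAK1, PTPN11, TBK1 and ZC3HAV1, and the lower ones SOCS1, IRF3, PARP10, LY6E, APOBEC3B, APOBEC3G, HELZ2 and UBE2L6. The ligands were silent at this depth. Of 21 interferon genes 18, IFNB1 among them, had 0 fragments in all libraries, and IFNE had 6 fragments in controls and 6 with TGF-β1.

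Receptors and JAK-STAT proteins had 2 of 8 tested genes at an unadjusted p under 0.05, both with higher values under TGF-β1, against 11.2% of all genes in that direction and 25.1% in either. IFNAR2, a chain of the type I interferon receptor, was at 1.67, 1.97 and 1.65 FPKM in controls and 2.25, 2.57 and 2.66 FPKM with TGF-β1 (log2 difference 0.34, SE 0.10, limma adjusted p = 0.0923), and 83.2% of its exon bases lie in other annotated genes. JAK1, the kinase bound to that chain, was at 68.2, 64.4 and 79.5 FPKM in controls and 86.4, 89.2 and 82.2 FPKM with TGF-β1 (log2 difference 0.28, SE 0.11, limma adjusted p = 0.143). The groups were apart in both genes. The adjusted p without control library 3 was 0.0533 for IFNAR2 and 0.0161 for JAK1 (limma). IFNAR1, the partner chain, ran from 13.0 to 16.8 FPKM in controls and from 16.2 to 18.9 FPKM with TGF-β1, and TYK2 from 16.6 to 20.3 and from 14.0 to 18.2. The groups overlapped in both genes, and without control library 3 the limma adjusted p was 0.0303 for IFNAR1 and 0.0823 for TYK2.

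Among the negative regulators 1 of 9 tested genes, SOCS1, a JAK inhibitor induced by cytokines, had an unadjusted p under 0.05, against 25.1% of all genes. Its level was 15.7, 17.2 and 11.9 FPKM in controls and 9.91, 9.31 and 11.3 FPKM with TGF-β1, without overlap (log2 difference -0.50, SE 0.13, limma adjusted p = 0.0718; -0.65 without control library 3, limma adjusted p = 0.00841). Its paralog SOCS3, the SUMO ligase gene PIAS4 and the phosphatase gene PTPN11 overlapped between the groups, with log2 differences of -0.08, -0.22 and 0.17. Without control library 3, 2 of the 9 negative regulators had an unadjusted p under 0.05 (22.2%, against 44.0% of all genes). SOCS1 has a GC content of 69.1%. With the GC content and length trend removed as well, 0 of the 9 passed the threshold by limma, against 8.41% of all genes. Of the sensing adaptors and kinases 3 of 8 tested genes had an unadjusted p under 0.05, against 25.1% of all genes. Without control library 3 there were 5 of 8 (62.5%, against 44.0%). The DNA sensor gene CGAS ran from 12.4 to 12.9 FPKM across controls and from 13.7 to 17.2 FPKM across TGF-β1 libraries, and the kinase gene TBK1 from 5.31 to 6.34 and from 6.86 to 7.46. IRF3, the factor that TBK1 activates, was at 28.4, 33.7 and 19.6 FPKM in controls and 21.1, 19.8 and 16.2 FPKM with TGF-β1. Its groups overlapped through control library 3 (log2 difference -0.47, SE 0.19, limma adjusted p = 0.177), and without that library the difference was -0.68 (limma adjusted p = 0.0126). IRF3 has a GC content of 59.0%, and 0 of the 8 passed with the GC content and length trend removed as well. TRAF3, a ligase of the same route, had a log2 difference of 0.15.

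In the list of other interferon-induced genes 7 of 25 tested had an unadjusted p under 0.05, all with lower values under TGF-β1 (28.0%, against 13.9% of all genes in that direction). There were 9 lower (36.0%, against 23.3%) and 4 higher (16.0%, against 20.7%) without control library 3. The mono-ADP-ribosyltransferase gene PARP10 was at 4.85, 5.15 and 3.27 FPKM in controls and 2.73, 2.55 and 2.67 FPKM with TGF-β1 (log2 difference -0.55, SE 0.13, limma adjusted p = 0.0562). LY6E, which encodes a lipid-anchored membrane protein, was at 37.9, 42.5 and 30.6 FPKM in controls and 25.1, 25.5 and 27.2 FPKM with TGF-β1 (log2 difference -0.49, SE 0.12, limma adjusted p = 0.0594). Without control library 3 the adjusted p was 0.00497 for PARP10 and 0.00663 for LY6E (limma). The groups did not overlap in either, and both have a GC content above 60% (66.9% and 64.2%). The cytidine deaminase gene APOBEC3B had a log2 difference of -0.38 (SE 0.10, limma adjusted p = 0.0762), with 23.3% of its exon bases in other annotated genes. UBE2L6, the enzyme that passes ISG15 to HERC5, was at 19.3, 22.7 and 18.5 FPKM in controls and 13.2, 16.2 and 16.7 FPKM with TGF-β1, also without overlap (log2 difference -0.37, SE 0.12, limma adjusted p = 0.104).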

How the data were processed

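RNA-seq of 6 T24 libraries was analysed from the deposited FPKM values, in 1 table of 6 columns and 6 single-library files that hold the same values. Per the submitters' processing notes the authors used HISAT2 2.0.5, featureCounts 1.5.0-p3 and build hg38. Not given in the sources used here are the annotation release, strand setting, library kit and trimming. With exon lengths of GENCODE release 29 (GRCh38), matched by symbol for 56923 rows, 100% of 98053 values below 1000 fragments came out as whole fragments, within 0.05. The implied FPKM denominators were 0.964 to 1.04 times the assigned fragments.

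A gene was tested if 3 or more libraries reached 1 FPKM, which left 11363. For these limma 3.58.1 (R 4.3.3), with its trend and robust options, fitted treatment alone to log2(FPKM + 1), p-values were adjusted by Benjamini-Hochberg over all tested genes, and the threshold was 0.05. Fold changes on this scale understate the change of low genes. GC content and coordinates came from GENCODE 29, and promoter sequences came from RefSeq (GRCh38.p14). The limit that 0 fragments allow is 3 fragments (95%), for counting error alone.

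The members and the lists were chosen with earlier results of these data known. Values in every library were given for members past the threshold, for the 2 tested members with the largest absolute change in each of 10 role groups, and for those at 50 FPKM or more. From each of the 5 pathway lists up to 4 genes were named by size of change, and IFNB1, IFNAR1, IFNAR2 and JAK1 were always named. Not every gene that these rules select is reported here. Some other genes are given by ranges or counts. Alternatives were quantile normalization, rescaling to the same FPKM sum, a minimum of 5 FPKM, no filter, a pseudocount of 0.1, limma without its trend and robust options, a replicate block, omission of each library, voom on recovered fragments, and removal of a loess trend (span 0.5) with GC content and length.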

Additional observations from a re-analysis of the deposited data

How the results depend on the processing

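The counts below were called by limma at an adjusted p of 0.05. Over all genes 277 were called, 15 without a filter, 500 with a minimum of 5 FPKM, 1054 with voom, 491 with the GC content and length trend removed, and 124 to 3280 leaving out 1 library. Of the tested members 1 was called (all genes 2.44%). With a pseudocount of 0.1, without a filter, or without trend and robust estimation 0 were called (all genes 2.36%, 0.053% and 1.8%). A minimum of 5 FPKM gave 6 of 16 (7.46% of 6705 genes). Rescaling to the same sum gave 3 (all genes 3.17%), quantile normalization 4 (all genes 3.04%) and voom 6 (all genes 9.33%). Leaving out 1 library gave 0 to 8 (all genes 1.09% to 28.9%). Of the 50 tested pathway genes 0 were called, and a minimum of 5 FPKM gave 3 of 38 (7.89%, all genes 7.46%). Rescaling gave 1 (all genes 3.17%), quantile normalization 1 (all genes 3.04%) and voom 5 (10.0%, all genes 9.33%). Leaving out 1 library gave 0 to 13 pathway genes (all genes 1.09% to 28.9%). A setting chosen after seeing the data, without control library 3 and with the GC content and length trend removed, called 956 genes (8.41%), 4 members (ISG15, IRF1, IFITM3 and IFI35) and 1 pathway gene. With the replicate number as a block the counts were 767 genes (6.75%), 3 members and 3 pathway genes. The numbers were not taken to pair the libraries, and whether they do is not settled. Same-numbered libraries correlated at 0.254, -0.0715 and 0.170 in their deviations from the group means. Libraries of unlike number correlated at -0.243 to 0.0694. Not every library correlated best with its own number: control library 2 did so with TGF-β1 library 1. The cause of these movements was not tested. Without a filter, low genes enter both the fit and the adjustment. The median log2 difference was -0.01 over the 26 tested members. With a minimum of 5 FPKM it was -0.13 over the 16 members left, whose own estimates did not change. With the GC content and length trend removed it was -0.09 over the 26. The estimate of LGALS3BP kept its sign in all 16 alternatives. Estimates near 0, such as those of USP18, IFIH1, PARP14 and NMI, did change sign in 2 to 5 of their alternatives.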
